A study of Mus musculus with 6 samples.

Results

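Ba/F3 is a mouse pro-B cell line that normally needs interleukin-3 (IL-3) to grow, and the IL-3 receptor signals through the kinase JAK2. The genes described here are the IL-3 receptor and related cytokine receptor chains, Il3ra, Csf2rb, Csf2rb2, Csf2ra, Il2ra, Il2rb, Il2rg, Il4ra, Il7r and Il6st. They were chosen by name, and every probe set (a group of array probes that together give 1 value) whose platform symbols were all among these names was taken. This gave 20 of 45037 probe sets, covering 9 of the 10 genes. Il2rg, the shared gamma chain, had no probe set under its symbol in the platform table used here and was not analysed here. One of the 20 carries the symbols of both Csf2rb and Csf2rb2.

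The cells were transduced with a doxycycline-inducible SPAG9-JAK2 fusion by a retroviral Tet-On system, and all 6 cultures carried this construct. Induced cells (3 arrays) received 500 ng/ml doxycycline and uninduced cells (3 arrays) received none, and RNA was taken after 48 hours. Doxycycline without the fusion was not among the arrays analysed here, so the drug and the fusion cannot be told apart, and the sources used here do not say whether the medium held IL-3 or whether the line is 1 clone. The array signal is linear and log2(signal + 16) was used for all differences, which understates those of dim probe sets. Each log2 fold change is induced minus uninduced.

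Type I cytokine receptors have no kinase of their own. In many of them a ligand-binding alpha chain pairs with a signalling chain. JAK kinases bound to the chains then phosphorylate the receptor and STAT factors such as STAT5. In mice the IL-3 alpha chain (Il3ra) pairs with the common beta chain (Csf2rb), which also serves GM-CSF and IL-5, or with a beta chain used by IL-3 alone (Csf2rb2). The IL-2 receptor joins Il2ra, Il2rb and the gamma chain, the IL-4 and IL-7 receptors join Il4ra or Il7r to the gamma chain, and Il6st (gp130) is the signalling chain of the IL-6 family.

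None of the 20 probe sets passed an adjusted p of 0.05 in limma, against 17 of 45037 (0.0377%) over the whole table (0 with the replicate number as a block), and the smallest adjusted p among the 20 was 0.157 (Il2ra). At an unadjusted p under 0.05 in limma there was 1 higher (Csf2rb) and 5 lower (Il2ra, Il3ra and all 3 of Il4ra), where 6.08% of all probe sets were higher and 7.98% lower. With the replicate number as a block there were 3 higher (both of Csf2rb and the probe set shared with Csf2rb2) and 6 lower (the same 5 and Il7r 1448575_at), against 5.95% and 8.26% of all probe sets. All 3 induced arrays lay below all 3 uninduced arrays for 6 of the 20 (11.2% of all probe sets), and for 0 of 20 above them (9.35% of all). These 6 were the probe set of Il3ra, 1 each of Il2ra and Il7r, and the 3 of Il4ra, which share a gene. The median log2 fold change was -0.12 over the 20 and -0.035 over all probe sets.

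Probe sets of the IL-3 beta chains were among the brightest on these arrays, and those of Csf2ra, Il7r and Il6st lay where silent genes lie. Silent genes were represented by 43 probe sets of 22 liver and brain genes, with a median of 4.94 and a 90th percentile of 5.85 on the log2(signal + 16) scale (signals of 14.7 and 41.9). By mean level, the Csf2rb probe sets stood at the 99.1 and 97.3 percentiles of all probe sets and that of Csf2rb2 at 98.5, while those of Il3ra, Il2ra, Il4ra and Il2rb stood between 54.1 and 80.0. All 8 probe sets of Csf2ra, Il7r and Il6st had both group means below the 90th percentile of the silent list.

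**Figure D1:**
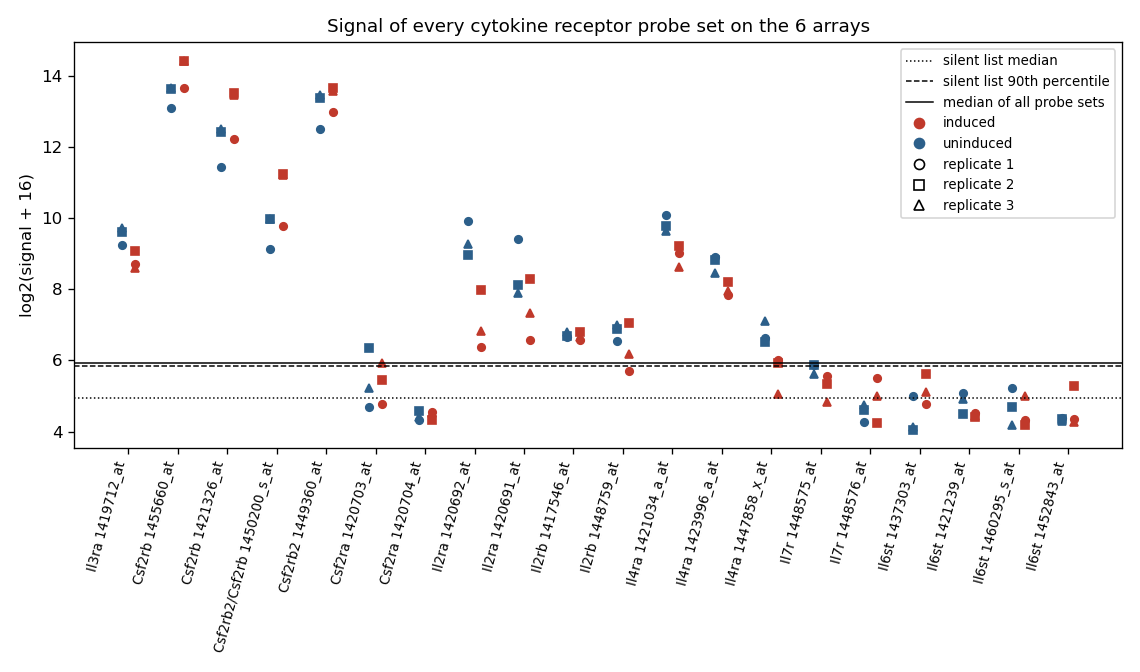
Signal of each of the 20 probe sets (log2(signal + 16), vertical axis) on the 3 induced (red) and 3 uninduced (blue) arrays, with marker shape for the replicate number. The 8 probe sets of Csf2ra, Il7r and Il6st scatter around the median of the silent list (4.94), while those of Csf2rb and Csf2rb2 lie far above its 90th percentile (5.85).

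Array facts bear on all of these values. Median signals ran from 46.3 to 63.8, highest on uninduced replicate 1. Without that array 1374 of all probe sets passed in limma, so values without the arrays numbered 1 are given below. Of 14 B-lineage markers 12 were measured and 5 (Ptprc, Cd79b, Igll1, Pax5 and Vpreb1) exceeded the silent list's 90th percentile in either group. Ebf1, Cd79a, Dntt, Blnk, Rag1, Rag2 and Cd24a did not. By that measure 25154 of 45037 probe sets exceeded it, and 6 of the 43 silent ones. Group means of Igll1, Pax5 and Vpreb1 reached at most a signal of 76.9, where silent Gria2 reached 78.1. The pro-B label thus rests here on few markers. Marker signals were summed over the brightest probe set of each gene. The B-lineage sums were apart, 7940 to 10340 induced against 11570 to 14700 uninduced, but rested mainly on Ptprc, the leukocyte antigen CD45 (7456 to 9713 against 10831 to 14116), while Cd79b had a log2 fold change of -0.0031. The other sums overlapped, with 345 to 1243 against 971 to 3005 for 8 measured granulocyte and monocyte markers, 5168 to 8030 against 7394 to 11720 for 6 measured mast cell and basophil markers, and 218 to 731 against 224 to 418 for 7 measured T-cell markers. The mast cell and basophil sums rested mainly on Gata2 (5062 to 7771 against 7220 to 11477). Cpa3 lay higher on all induced arrays (0.92) but was dim, with 32.0 to 54.0 against 9.60 to 23.2. It exceeded the silent list's 90th percentile through its induced mean only. Among the 23 B-lineage probe sets 8 had a positive log2 fold change and 15 a negative one, and none passed in limma. Groups did not overlap for 2 higher (9.35% of all) and 1 lower (11.2% of all). The higher ones were of Ebf1 (1.13, adjusted p of 0.117 in limma) and Dntt (0.76), the lower one of Ptprc (-0.52). Those of Ebf1 and Dntt were not the brightest of their gene, so the sums leave them out. Of the 9 mast cell and basophil probe sets 6 had a negative log2 fold change and 3 a positive one. Of the 10 granulocyte and monocyte probe sets 8 had a negative log2 fold change (median of the 10 -1.17). The 2 with a positive one were those of Mpo (0.049) and Elane (0.46). None passed in limma, but 5 had an unadjusted p under 0.05, all lower, where 7.98% of all probe sets were lower. Groups did not overlap for 4, all lower (11.2% of all), of Adgre1 (-2.18), S100a8 (-2.18), S100a9 (-1.46) and Csf1r (-1.23). All 8 granulocyte and monocyte markers exceeded the silent list's 90th percentile in at least 1 group. So did 3 of the 6 mast cell and basophil markers and 3 of the 7 T-cell markers. Kit, Fcer1a and Mcpt8 of the mast cell list did not, nor did Cd3e, Cd4, Cd2 and Cd5 of the T-cell list. S100a8, S100a9, Itgam, Cd14 and Cd3d passed it through the uninduced mean only, as did Pax5 and Vpreb1 of the B-lineage list. Elane passed it through the induced mean only. No group mean of Elane, Cd14, Cpa3, Cd3d or Cd8a exceeded the 78.1 of silent Gria2. The part of these markers in the receptor values was not tested. In a bulk culture fewer cells of a kind and less RNA per cell cannot be told apart. Jak2 probe set 1421066_at read 1430.1, 1740.2 and 1600 on induced and 1175, 3439 and 3081 on uninduced arrays, and 1421065_at read 572, 1032 and 948 against 611, 2297 and 2159. Spag9 1433648_at read 2219, 1667 and 1938 against 2222, 4702 and 4660, with no overlap. On all 3, uninduced replicate 1 read closer to the induced arrays than to the other uninduced ones. The log2 fold changes were -0.55, -0.80 and -0.92, none past the adjusted threshold in limma, and the 2 other Spag9 probe sets were dim. The sources used here do not say whether mouse probes read the fusion transcript, so this does not check the labels.

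Promoter sequence was at hand for 8 of the 10 genes (RefSeq, GRCm38.p6), and the 250 bases before the start were searched on both strands for TTCNNNGAA, the general form of a STAT site, and for CGGAAG or AGGAAG, core forms of sites for ETS factors such as PU.1, with no overlap between the motifs in these windows. TTCNNNGAA was found in Csf2rb2, its first base at position -15, and in Il7r at position -142, where -1 is the base before the start, and in 7.02% of 32851 promoter windows. The windows follow the starts of the RefSeq promoter table, and those of Il3ra (all 250 bases), Csf2ra (43 bases) and Il7r (65 bases) lie partly or wholly inside the gene's annotated span. Counted from the edge of that span the Il7r match is at -77. An ETS form was found in Il3ra, Csf2rb2, Csf2ra, Il2ra, Il2rg, Il4ra and Il7r, not in Il6st, and in 39.2% of all windows. Csf2rb2 is shown as the beta chain gene with a STAT form, Il2ra and Il4ra because their probe sets had the smallest p among the 20, and for Il7r only the stretch around its STAT form. Motifs are in capitals, both kinds in the first 3 sequences and TTCNNNGAA alone in that of Il7r. They are matches of letters and not measured binding.
Csf2rb2, chr15:78305722-78305971, minus strand: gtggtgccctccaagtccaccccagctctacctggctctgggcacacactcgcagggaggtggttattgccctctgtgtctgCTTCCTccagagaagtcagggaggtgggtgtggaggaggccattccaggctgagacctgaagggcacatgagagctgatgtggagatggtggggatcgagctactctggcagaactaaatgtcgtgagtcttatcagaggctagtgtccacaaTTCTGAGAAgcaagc
Il2ra, chr2:11642542-11642791, plus strand: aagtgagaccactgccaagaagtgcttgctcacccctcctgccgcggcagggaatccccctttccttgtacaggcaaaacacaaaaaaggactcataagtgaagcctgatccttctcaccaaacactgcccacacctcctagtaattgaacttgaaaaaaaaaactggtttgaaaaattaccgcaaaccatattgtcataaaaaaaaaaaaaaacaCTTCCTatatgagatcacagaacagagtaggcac
Il4ra, chr7:125552021-125552270, plus strand: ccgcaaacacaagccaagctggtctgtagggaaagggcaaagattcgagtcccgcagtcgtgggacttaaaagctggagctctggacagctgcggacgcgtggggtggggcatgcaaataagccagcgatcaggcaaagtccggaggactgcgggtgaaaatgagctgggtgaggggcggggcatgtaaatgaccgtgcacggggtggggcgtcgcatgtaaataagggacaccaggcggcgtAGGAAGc
Il7r, chr15:9529985-9530043, minus strand: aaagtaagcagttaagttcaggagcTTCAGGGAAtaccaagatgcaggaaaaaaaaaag

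Il3ra, the chain that binds IL-3, gave lower signals on every induced array. Its probe set 1419712_at read 400.2, 520.4 and 375 on induced and 591, 766 and 826 on uninduced arrays (replicates 1, 2 and 3), so the groups did not overlap. The means were 432 ± 77.8 (SD, n = 3) and 728 ± 122 (SD, n = 3). The log2 fold change was -0.73 ± 0.22 (SE; 95% interval -1.26 to -0.20), and with an adjusted p of 0.248 in limma it did not pass. Arrays of the same number differed by -0.55, -0.54 and -1.11, and without both arrays numbered 1 the log2 fold change was -0.83. Uninduced replicate 1 was the uninduced array nearest to the induced ones.

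Csf2rb, the common beta chain, pointed the other way on both of its own probe sets. Probe set 1455660_at read 12771, 21638 and 21804 on induced and 8748, 12506 and 12870.2 on uninduced arrays. In each group replicate 1 was the lowest array, and induced replicate 1 stayed below uninduced replicate 3, so the groups overlapped. It stood at a log2 fold change of 0.70 ± 0.29 (SE; 95% interval 0.0059 to 1.39; adjusted p of 0.351 in limma), and arrays of the same number differed by 0.55, 0.79 and 0.76. Probe set 1421326_at read 4716, 11635 and 11158 on induced and 2750.0, 5498 and 5799 on uninduced arrays. The pattern over arrays was the same, with induced replicate 1 below uninduced replicates 2 and 3. Its log2 fold change was 0.93 ± 0.45 (SE; 95% interval -0.15 to 2.02; adjusted p of 0.417 in limma), with 0.77, 1.08 and 0.94 between arrays of the same number. The induced array was thus the higher one for all 3 replicate numbers on both probe sets, and without both arrays numbered 1 the log2 fold changes were 0.78 and 1.01. Without uninduced replicate 1 alone, 1421326_at gave 0.59.

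Csf2rb2, the IL-3-specific beta chain, is a near-identical copy next to Csf2rb on chromosome 15, with 0 protein-coding genes between them in the RefSeq table for GRCm38.p6. Its own probe set 1449360_at read 8013, 12788 and 12077 on induced and 5747, 10653 and 11278 on uninduced arrays. Replicate 1 was again the lowest array of each group and the groups overlapped. This gave a log2 fold change of 0.28 ± 0.33 (SE; 95% interval -0.52 to 1.08; adjusted p of 0.754 in limma), with 0.48, 0.26 and 0.099 between arrays of the same number. It was 0.18 without both arrays numbered 1, and leaving out 1 array gave from -0.030 (uninduced replicate 1) to 0.49 (induced replicate 1), so no direction can be given.

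Probe set 1450200_s_at, which the platform assigns to both beta chains, read 856, 2419.6 and 2334 on induced and 544, 997 and 997 on uninduced arrays. Induced replicate 1 lay below uninduced replicates 2 and 3. Its log2 fold change was 1.04 ± 0.47 (SE; 95% interval -0.073 to 2.15; adjusted p of 0.381 in limma), with 0.64, 1.27 and 1.21 between arrays of the same number and 1.24 without both arrays numbered 1. Because the copies can share probes, the division of signal between Csf2rb and Csf2rb2 is uncertain, and the difference between their probe sets was not tested.

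The alpha and beta chains of the IL-3 receptor were also set against each other within each array, a comparison chosen after the values were seen. The log2 value of Csf2rb probe set 1455660_at minus that of Il3ra on the same array was 4.94, 5.34 and 5.80 on induced and 3.85, 4.0 and 3.94 on uninduced arrays. Only the difference between groups can be read, since levels of different probe sets are not comparable. That difference was 1.43 (5.36 ± 0.43 against 3.93 ± 0.075, SD, n = 3), with no overlap. A two-sided exact permutation test gave p = 0.1, the smallest that 3 arrays against 3 allow. Against Il3ra the differences were 1.66 for Csf2rb 1421326_at, 1.77 for the shared probe set and 1.01 for Csf2rb2. Each was without overlap and at the same exact p of 0.1 in that permutation test (4 comparisons, adjusted p also 0.1). With that floor the test cannot decide whether the groups differ. All 4 use the same Il3ra values, whose own log2 fold change of -0.73 is part of each difference. Csf2rb2 alone stood at 0.28, so the 1.01 gives it no direction. Of all other probe sets 38.8% also lay wholly above on induced arrays when set against Il3ra in this way, so the count of 4 is not particular to the beta chains.

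Csf2ra, the alpha chain for GM-CSF, was not distinguishable from silent genes. Probe set 1420703_at read 11.6, 27.5 and 45.2 on induced and 9.72, 65.1 and 21.4 on uninduced arrays, with the groups mixed, and 1420704_at stayed between 4.05 and 7.74 on all 6. The log2 fold changes were -0.029 (95% interval -1.19 to 1.13) and 0.034 (-0.39 to 0.46).

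**Figure D2:**
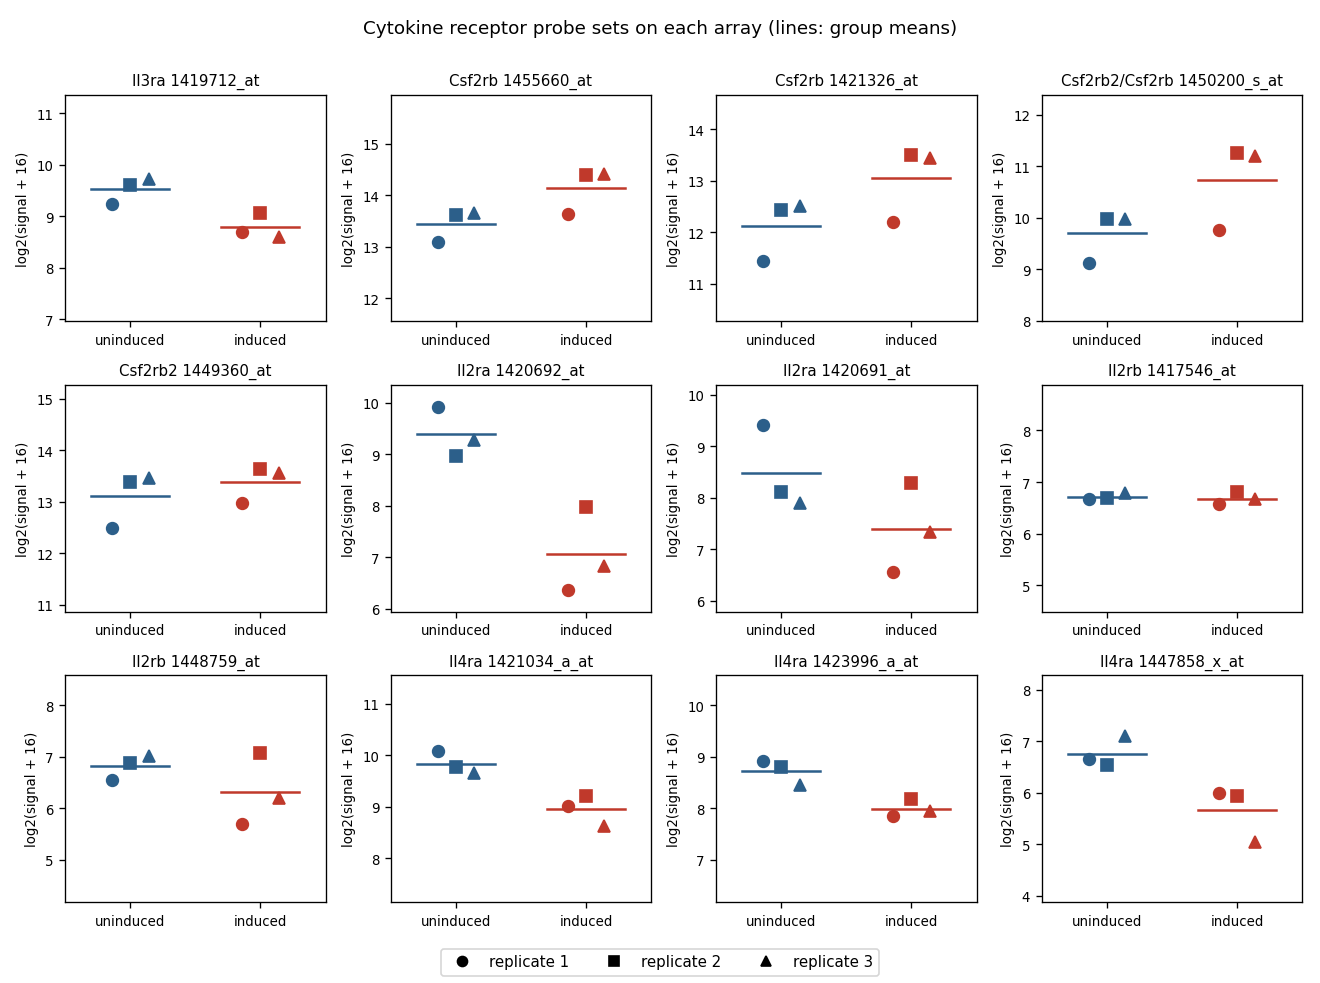
log2(signal + 16) (vertical axis, each panel spanning the same number of log2 units) on uninduced (blue) and induced (red) arrays for the 12 brighter probe sets, with a mean level of at least the array-wide median. Horizontal lines are group means and marker shapes give the replicate number. Replicate 1 is the lowest array of both groups in the panels of Csf2rb and Csf2rb2, while for Il3ra, Il4ra and Il2ra 1420692_at the groups are apart.

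Il2ra (CD25), the alpha chain that gives the IL-2 receptor its high affinity and a known STAT5 target, had the lowest log2 fold change of the 20 probe sets. Probe set 1420692_at read 66.5, 235 and 98.6 on induced and 957, 487 and 604 on uninduced arrays. Every induced array lay below every uninduced one, with means of 133 ± 89.6 (SD, n = 3) and 683 ± 245 (SD, n = 3). The log2 fold change was -2.33 ± 0.46 (SE; 95% interval -3.43 to -1.24), a 5.04-fold lower value on this scale, and the adjusted p of 0.157 in limma did not pass. With a trended and robust variance it passed, with an adjusted p of 0.0309 in limma, as the only one of the 20, while 1.2% of all probe sets passed. Over the 15 alternatives run for it the log2 fold change lay between -2.79 and -1.72, and the adjusted p in limma between 0.0309 and 0.415.

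The other Il2ra probe set did not separate the groups. Probe set 1420691_at read 79.0, 297 and 146 on induced and 665, 262 and 221 on uninduced arrays, so induced replicate 2 exceeded uninduced replicates 2 and 3. The log2 fold change was -1.07 ± 0.56 (SE; 95% interval -2.41 to 0.26; adjusted p of 0.446 in limma). Arrays of the same number differed by -2.84, 0.18 and -0.55 here and by -3.56, -1.0 and -2.44 on 1420692_at. Uninduced replicate 1 was the highest array on both, and without both arrays numbered 1 the log2 fold changes were -0.19 and -1.72. For 1420691_at it was -0.66 without induced replicate 1 alone and -0.60 without uninduced replicate 1 alone. The size of the Il2ra difference thus depended on the probe set and on the arrays numbered 1.

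Il2rb, the signalling beta chain shared by the IL-2 and IL-15 receptors, differed little on 1417546_at, with 78.7, 95.5 and 85.3 on induced and 85.7, 87.4 and 95.1 on uninduced arrays. The log2 fold change was -0.042 ± 0.17 (SE; 95% interval -0.45 to 0.37), which turned to 0.025 after median centring. On 1448759_at the signals were 35.7, 118 and 57.1 induced and 77.3, 101 and 113 uninduced. Induced replicate 2 was the highest array of all 6 there, as it was on 1417546_at. That log2 fold change was -0.49 (95% interval -1.37 to 0.38), and it was -0.18 without induced replicate 1 and -0.87 without induced replicate 2.

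Il4ra, the alpha chain that binds IL-4 and also serves IL-13, was lower on every induced array on all 3 of its probe sets. Probe set 1421034_a_at read 502, 578 and 378 on induced and 1068, 855 and 786 on uninduced arrays. This gave a log2 fold change of -0.88 ± 0.23 (SE; 95% interval -1.44 to -0.33), with an adjusted p of 0.209 in limma. Probe set 1423996_a_at read 215, 276 and 231 on induced and 467, 433 and 334 on uninduced arrays. Its log2 fold change was -0.73 ± 0.21 (SE; adjusted p of 0.231 in limma).

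The dimmest Il4ra probe set, 1447858_x_at, read 48.1, 45.1 and 17.1 on induced and 84.0, 76.3 and 122 on uninduced arrays. It gave -1.10 ± 0.32 (SE; adjusted p of 0.234 in limma), but induced arrays reached the level of silent genes there, so the size is uncertain. Without both arrays numbered 1 the Il4ra values were -0.79, -0.56 and -1.32. None of the 3 passed the threshold as analysed here or in any alternative, and none changed sign.

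Il7r, the IL-7 alpha chain that normal pro-B cells depend on, stayed within the range of silent genes. Probe set 1448575_at read 31.2, 24.1 and 12.7 on induced and 42.4, 42.2 and 32.8 on uninduced arrays. The groups did not overlap, but the gap between induced replicate 1 and uninduced replicate 3 was narrow and the log2 fold change was -0.54 ± 0.24 (SE; adjusted p of 0.378 in limma), or -0.34 without induced replicate 3. Its other probe set, 1448576_at, ran from 2.84 to 29.7 with the groups mixed and gave 0.37 (95% interval -0.46 to 1.20).

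Il6st was likewise at the level of silent genes on all 4 probe sets, whose signals ran from 0.638 to 33.6. Their log2 fold changes were 0.77, -0.39, -0.19 and 0.29, with adjusted p in limma from 0.379 to 0.846. Without both arrays numbered 1 they were 1.27, -0.29, 0.16 and 0.45, none past the adjusted threshold in limma. The first, 1437303_at, also varied with the pseudocount, from 2.29 at 1 to 0.28 at 64. At this signal no direction can be given for Il6st.

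**Figure D3:**
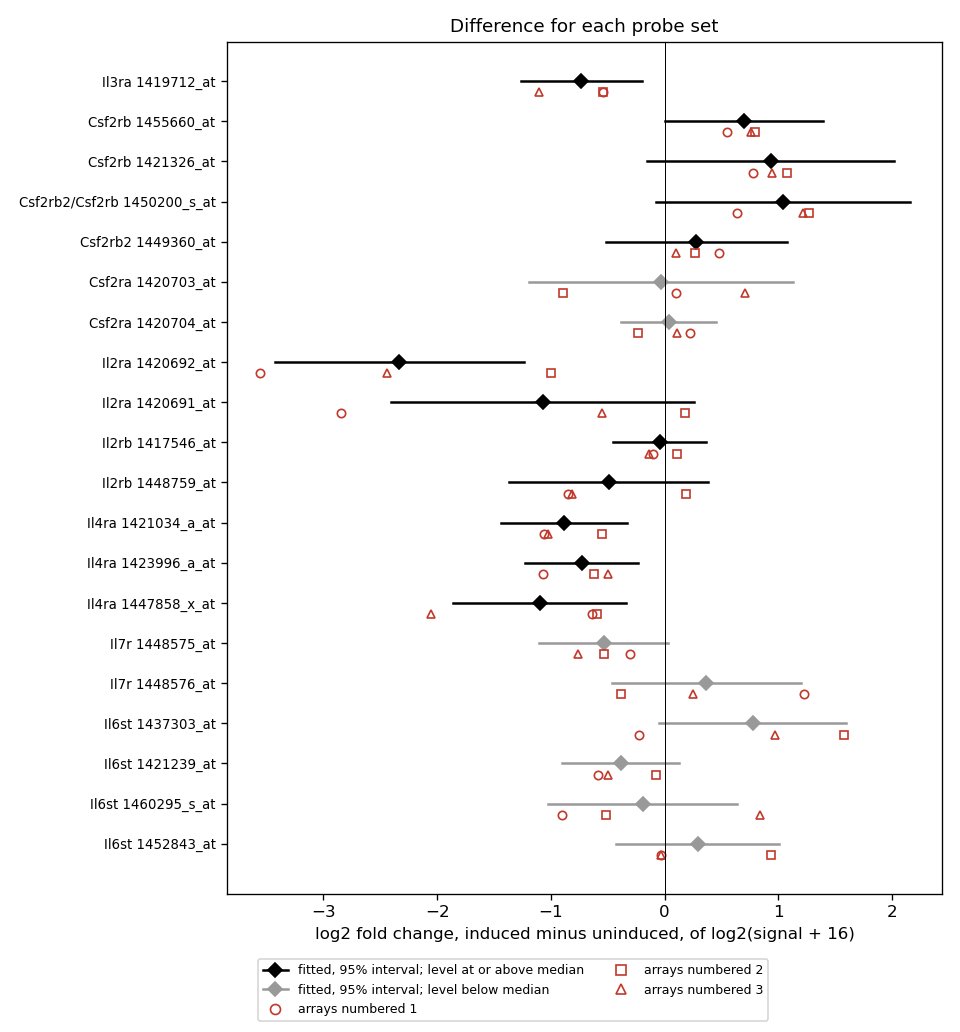
Fitted log2 fold change (diamonds, horizontal axis, induced minus uninduced) with its 95% interval for each of the 20 probe sets, black for the 12 brighter probe sets and grey for the 8 dim ones, and the difference between arrays of the same replicate number (open red markers). The values of Il3ra and Il4ra lie below 0 and those of Csf2rb above 0 for all 3 replicate numbers.

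Other chains of the family were read from a list of 25 type I receptor genes, of which 20 had a probe set, 37 in all. None of the 37 passed in limma (0 higher, 0 lower), 3 had an unadjusted p under 0.05 (all lower, where 7.98% of all probe sets were lower), and the median log2 fold change was -0.062 against -0.035 over all probe sets. Groups did not overlap for 3 lower and 1 higher, where 11.2% and 9.35% of all probe sets did so, both shares above those of the 37. Only 9 of the 20 genes had a probe set that reached the median level of the array.

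Ebi3, a soluble receptor-like subunit of IL-27 and IL-35, read 627, 228 and 189 on induced and 1202, 1379 and 1198 on uninduced arrays. It stood at -2.0 ± 0.43 (SE; adjusted p of 0.17 in limma), with no overlap, and passed only with the trended and robust variance (adjusted p of 0.0384 in limma). Crlf2, the TSLP receptor chain that pairs with Il7r, read 2319.6, 1579 and 1922 on induced and 3254, 3392 and 3602 on uninduced arrays, and stood at -0.83 ± 0.20 (SE; adjusted p of 0.195 in limma). Induced arrays of Crlf2 all lay below uninduced ones, while its partner Il7r was at the level of silent genes. The other named chains were Osmr (-0.69), Il6ra (-0.60), Il27ra (0.24) and Il15ra (0.25), with adjusted p in limma from 0.335 to 0.667. Osmr reached the median level of the array only in its uninduced group.

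The ligands of these receptors were read from a list of 19 genes, 17 with a probe set and 22 probe sets in all. None passed in limma (0 higher, 0 lower), 1 had an unadjusted p under 0.05 (higher, where 6.08% of all probe sets were higher), and the median log2 fold change was -0.060. Il3 itself was listed at signals from 2.22 to 9.88 on the 6 arrays and Csf2 (GM-CSF) from 2.08 to 6.16, both under the silent list's median signal of 14.7.

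Il4, the cytokine of the Il4ra chain, was the ligand whose groups did not overlap, 1 of 22 probe sets against 9.35% of all. It read 51.1, 88.6 and 151 on induced and 6.19, 24.6 and 27.7 on uninduced arrays, and stood at 1.63 ± 0.41 (SE; adjusted p of 0.201 in limma). Its uninduced arrays lay within the range of silent genes, so the size is uncertain. It was named only because its induced group reached the median level of the array, which its mean over all arrays did not. Il6 was bright in both groups, with 1343, 3341 and 6633 on induced and 1169, 1889 and 1557 on uninduced arrays (1.03 ± 0.56 SE; adjusted p of 0.465 in limma). Induced replicate 1 lay below uninduced replicates 2 and 3 for Il6.

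Of the remaining named ligands, Osm, which signals through Il6st, stood at 0.97, Il15, which signals through Il2rb, at -0.92, Ctf1 at -0.78 and Clcf1 at -0.26, with overlapping groups and adjusted p in limma from 0.384 to 0.683. For Osm uninduced replicate 1 (1547) was above induced replicates 2 and 3 (1542 and 1210.3), and for Il15 it (549) was the uninduced array near the induced ones (515 to 992).

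**Figure D4:**
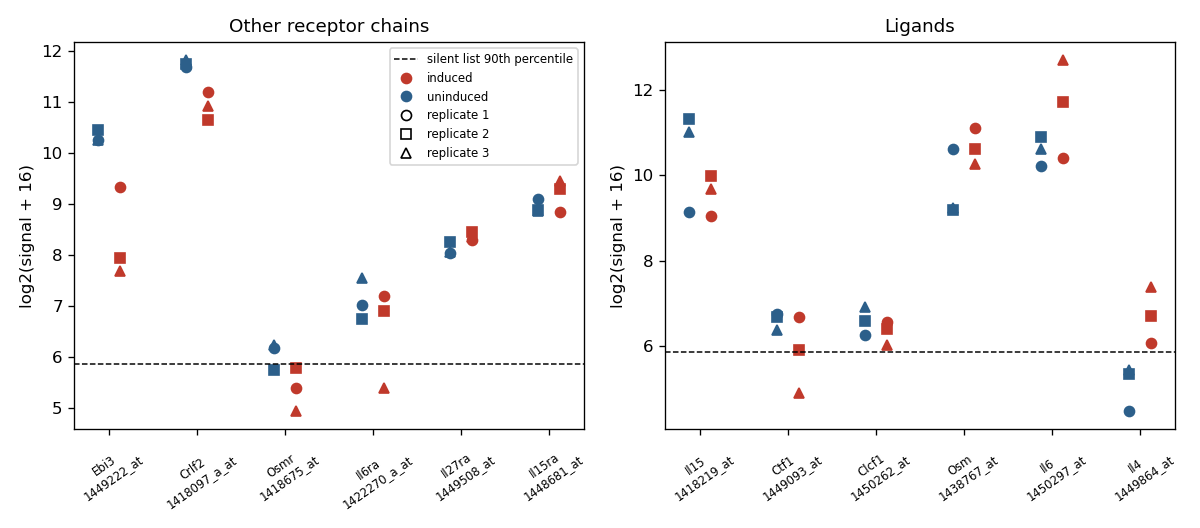
log2(signal + 16) (vertical axis) on the 3 induced (red) and 3 uninduced (blue) arrays for 6 other receptor chains (left) and 6 ligands (right). The dashed line is the silent list's 90th percentile. These genes had the smallest p among those of each list whose higher group reached the array-wide median. Il4 and Osmr had a mean level below that median and entered only through their higher group. Ebi3 and Crlf2 lie lower on all induced arrays and Il4 higher, and none of the 12 passed an adjusted p of 0.05 in the limma fit.

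The genes with the pattern most like a member's were found for the 3 members with the smallest p, over the 6 arrays and 10204 genes, by the root mean square difference between log2 profiles centred on their means. For Il2ra (1420692_at) they were Ddit3 (0.33), Fcgbp (0.37) and Atf5 (0.38), where the median gene was 1.30 away. Ift122 (0.086), Pvt1 (0.093) and Lyl1 (0.104) were nearest to Il4ra (median 0.54), and Calcoco1 (0.075), Nat8f1 (0.078) and Ptpn3 (0.082) to Il3ra (median 0.48). As the nearest of 10204 genes over 6 arrays these are close by selection. Whether they are closer than such a search gives for other genes was not tested.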

How the data were processed

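RNA of 6 Ba/F3 cultures was hybridised to 6 Affymetrix mouse arrays. The deposited values are linear signal intensities, made with Affymetrix Expression Console 1.4.1 per the submitters' processing notes. No source used here names the summary algorithm, and the table holds no detection calls. Each array's values had a trimmed mean of 500 (2% left out at each end), a scaling kept as it was.

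From these intensities log2(signal + 16) was taken, and the 64 control probe sets were left out. The remaining 45037 were fitted with limma 3.58.1 in R 4.3.3 (lmFit and eBayes, 4 residual degrees of freedom, two-sided, Benjamini-Hochberg over all probe sets, threshold 0.05). The platform table gave 1 symbol for 34945 of them, several for 932 and none for 9160, and all 9 measured members matched the RefSeq table by Entrez number. Figures were drawn with matplotlib 3.10.9.

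Members, lists and alternatives were chosen with earlier results of these data known. The text names every member, up to 6 genes per context list with the smallest p among those whose higher group reached the median level, and the genes most like 3 members. Nothing in the labels says that the cultures came from separate experiments. The p-values then reflect no more than the spread among these 6 arrays, which may be technical, and precision is limited by their number. The main fit did not pair arrays. The titles' replicate numbers served as pairs only in the replicate block and in differences between arrays of the same number. Deviations from the group means correlated at 0.289, 0.173 and 0.17 between arrays numbered 1, 2 and 3. Arrays numbered 2 and 3 also correlated across numbers (0.17 and 0.123), so a pairing of these is not established.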

Additional observations from a re-analysis of the deposited data

How the results depend on the processing

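The settings tried were quantile normalization, median centring, the replicate block, a filter at the median level, 1 probe set per gene, pseudocounts of 1 and 64, a trended and robust variance, leaving out each array or both numbered 1, and a threshold of 0.01. No test of the cause was run for any change below.

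Over all probe sets 17 passed in limma. There were 0 with the replicate block (6401 at an unadjusted p under 0.05), with a pseudocount of 1 (5364), without both arrays numbered 1 (11167) and at a threshold of 0.01, 30 with median centring (25 higher and 5 lower, against 9 and 8), 34 with 1 probe set per gene, 136 with a pseudocount of 64, 171 with the filter and 541 with a trended and robust variance. Leaving out 1 array gave from 0 to 1374, the latter without uninduced replicate 1. The members' count of 0 became 1 only with the trended and robust variance (Il2ra), as did that of the other receptor chains (Ebi3), and that of the ligands stayed at 0. The block changed no other call.

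Of 281 recomputed member values 264 kept direction and side of the threshold, 1 passed it and 16 turned sign, 4 of these at or above the median level. Il2rb 1417546_at (-0.042) gave 0.025 with median centring, 0.029 with quantile normalization and -0.105 to 0.013 without 1 array, and Csf2rb2 1449360_at (0.28) gave -0.030 to 0.49 without 1 array. The others were dim. Csf2ra 1420703_at (-0.029) gave 0.038 with median centring, 0.0092 with quantile normalization, 0.020 with a pseudocount of 1 and -0.40 to 0.43 without 1 array. Csf2ra 1420704_at (0.034) gave -0.061 without both arrays numbered 1 and -0.023 to 0.10 without 1 array. Without both arrays numbered 1, Il7r 1448576_at (0.37) gave -0.066 and Il6st 1460295_s_at (-0.19) gave 0.16. Without 1 array, Il6st 1460295_s_at gave -0.45 to 0.067 and Il6st 1452843_at (0.29) gave -0.034 to 0.47.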
